A study of Mus musculus with 6 samples.

Results

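Interferon-stimulated genes were followed in regulatory T (Treg) cells of the pancreas and the spleen. The 37 members are a list of named genes, put together by known function with earlier results of these data known, 23 of them known mainly as targets of type I interferon and 14 as targets biased towards interferon gamma. Of the 37, 31 had a probe set annotated to that gene alone, 21 type I and 10 gamma-biased members, out of 19752 genes measured in this way. Isg15, Gbp2, Gbp6, Igtp and Irgm2 were named only by probe sets that name several genes, and Ifi44 by none, so these 6 were not analysed here. Of the 31, 30 had a mean level above background, the exception being Mx2.

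RNA was hybridised to 6 Affymetrix Mouse Gene 1.0 ST arrays, 3 for Treg cells sorted from pancreas and 3 for those sorted from spleen. All samples came from prediabetic female NOD mice, a strain that develops autoimmune diabetes spontaneously, aged 10 weeks, carrying the Foxp3-ires-gfp reporter and labelled with the genetic background NOD NRB_SFB+. Cells were sorted as DAPI-, CD45+, TCRb+, CD4+ and GFP+, so that both groups share the reporter, sex, age and gate and differ in the tissue of origin. The labels do not say whether arrays came from separate mice or from pools, and the p-values therefore reflect sample-to-sample spread of possibly technical origin. The design sets Treg cells at the site of autoimmunity beside their counterparts in spleen.

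Interferons are cytokines that switch on a shared set of defence genes. Type I interferons bind a receptor made of Ifnar1 and Ifnar2 and activate a complex that includes Stat2 and Irf9 and binds the interferon-stimulated response element (ISRE). Interferon gamma binds Ifngr1 and Ifngr2 and acts through the gamma-activated site (GAS). Many target genes carry ISRE motifs, respond to both kinds of interferon and differ mainly in degree, so the division into type I and gamma-biased members is one of emphasis. In T cells, both kinds of interferon shape differentiation, and interferon gamma from T cells is a hallmark of the islet infiltrate.

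The arrays differed in width. The interquartile range of the log2 values was 3.07, 2.72 and 2.23 on pancreas arrays 1 to 3 and 2.49, 2.80 and 3.00 on spleen arrays 1 to 3, and median intensities lay between 82.016 and 92.03. The background level was a log2 intensity of 5.997, and 11123 to 12409 genes lay above it on each array. The sorted identity was similar in both tissues, with Foxp3 at 11.48 ± 0.16 in pancreas and 11.52 ± 0.32 in spleen (SD, n = 3 each), and 0 of 9 T cell and sorting genes passed the test in limma (0 of 9 also at an unadjusted p under 0.05). Markers of other cells moved with the tissue. All 13 measured acinar genes were higher in pancreas, 12 past the test, with a summed intensity of 14428 to 29958 on pancreas arrays and 1144 to 2928 on spleen arrays. All 9 B cell markers had a higher mean in pancreas, 1 past the test (Cd79a) and 8 at an unadjusted p under 0.05. Their sums were 927 to 1963 and 700 to 792, and Ms4a1, Ebf1, Fcrla and Cr2 were below background on every spleen array. Of 17 macrophage and dendritic cell markers, 1 passed (Lyz2), with sums of 1224 to 1319 and 921 to 1078. At an unadjusted p under 0.05, 3 were higher in pancreas and 0 lower, namely Lyz2, Lyz1 (0.64) and Cd68 (0.54, log2 difference). Adgre1, Csf1r, Itgax, Mrc1, Xcr1 and Clec9a were among 11 below background on all 6 arrays. The 7 plasmacytoid dendritic cell markers had sums of 986 to 1028 in pancreas and 1008 to 1178 in spleen, with 0 past the test and 1 in each direction at an unadjusted p under 0.05. The part of these other cells in the results below was not tested.

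No interferon-stimulated gene passed the test between pancreatic and splenic Treg cells. In limma with Benjamini-Hochberg adjustment over 19752 genes, 0 of 31 members had an adjusted p under 0.05, against 0.678% of all genes (134; 0.547% higher and 0.132% lower in pancreas), so the members' share lies near the background. At an unadjusted p under 0.05 there were 3 of 31, Gbp3 higher and Ifit1 and Ifit2 lower in pancreas. This was 9.68%, against 6.84% of all genes and 10.1% of those above background. For 4 of the 31 members, or 12.9%, the arrays of the tissues did not overlap, namely Isg20 and Gbp3 (higher in pancreas) and Ifit2 and Ddx58 (lower). The share was 10.4% of all genes (4.57% higher and 5.81% lower) and 14.2% of those above background. After each array was centred and scaled to one interquartile range, Isg20 and Ddx58 overlapped, while Ifit1, Xaf1 and Oasl1 did not. With array weights in limma, which gave most weight to array 2 of each tissue, 5 members passed (Ifit1, Ddx58 and Xaf1 lower, Gbp3 and Psmb9 higher) beside 1684 of all genes. Data were simulated for all 19752 genes, with the residual spread of each gene and noise drawn independently for each. In them, log2 changes of 0.5 passed in 2.4% of cases and those of 1 in 46%. These rates are for genes picked at random, not for the members. A member that did not pass may thus still differ between tissues, and for most the difference was bounded within 2-fold only. For 29 of 31, the 95% confidence interval of the difference lay within 2-fold in either direction, as it did for 94.3% of all genes, and the exceptions were Ifit2 and Usp18, whose intervals reached -1.07 and -1.16 on the log2 scale. In these bulk samples, fewer cells that respond to interferon and less RNA of these genes per cell cannot be told apart.

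**Figure D1:**
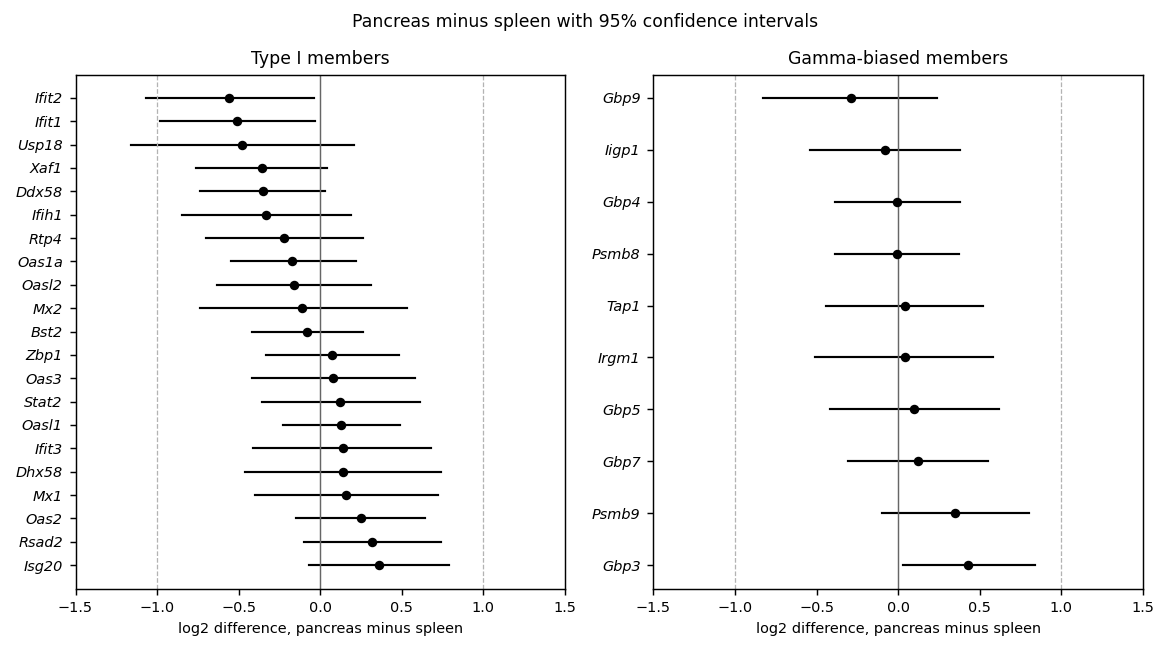
Log2 difference between tissues (x axis, pancreas minus spleen) for the 21 type I and 10 gamma-biased members, with 95% confidence intervals from limma and dashed lines at a 2-fold difference. The points lie between -0.56 (Ifit2) and 0.43 (Gbp3), and 0 of 31 passed the adjusted test.

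The 2 classes gave medians on either side of 0, both small. The type I members had a median log2 difference of -0.08, ranging from -0.56 to 0.36, with 10 of 21 higher in pancreas. The gamma-biased members had a median of 0.04, ranging from -0.29 to 0.43, with 6 of 10 higher. The median over all genes was -0.001. Both class medians changed sign with the array left out, running from -0.14 without pancreas array 1 to 0.056 without pancreas array 3 for type I and from -0.074 to 0.22, without the same arrays, for gamma. Averaged over the arrays of a tissue, the median type I level was 7.61 ± 0.27 in pancreas and 7.75 ± 0.10 in spleen, and the median gamma level 9.42 ± 0.31 and 9.37 ± 0.22 (log2 intensity, SD, n = 3 each). The difference between the classes was not tested, since the members were chosen with results of these data known.

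**Figure D2:**
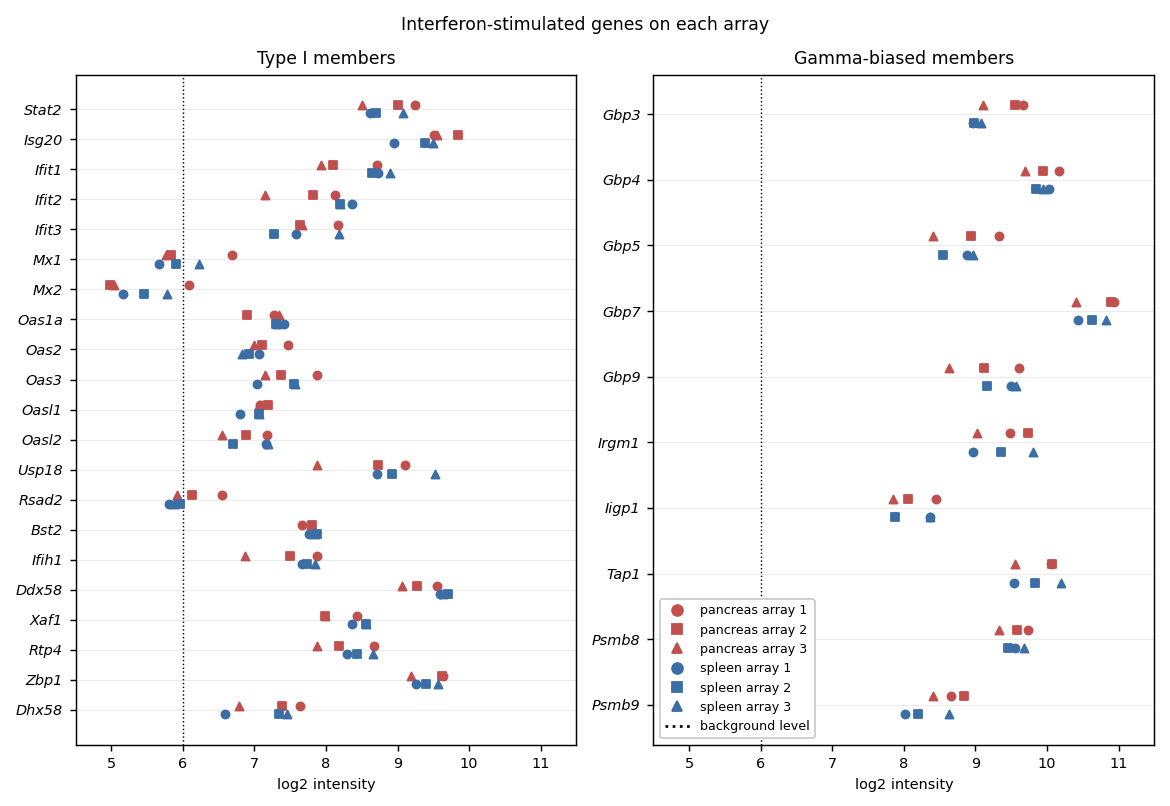
Log2 intensity (x axis) of each of the 31 measured members on the 6 arrays, with pancreas in red, spleen in blue, a marker shape for each array number and a dotted line at the background level of 5.997. The red and blue points overlap for all members but Isg20, Ifit2, Ddx58 and Gbp3.

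Among the type I members, the cytosolic RNA sensors had lower means in pancreas for 2 of 3. Ddx58, the gene of the sensor RIG-I, read 9.55, 9.27 and 9.06 on pancreas arrays 1 to 3 and 9.60, 9.71 and 9.64 on spleen arrays 1 to 3 (log2 intensity). All spleen arrays lay above all pancreas arrays, but the nearest pair differed by less than the spread within pancreas, and the difference of -0.35 ± 0.17 (SE) did not pass (adjusted p = 0.818). Ifih1, the gene of the sensor MDA5, read 7.87, 7.49 and 6.87 in pancreas and 7.66, 7.73 and 7.84 in spleen, a difference of -0.33 ± 0.24. Here pancreas array 1 was the highest of all 6 and pancreas array 3 the lowest. Dhx58, whose product LGP2 modulates these sensors, read 7.64, 7.38 and 6.79 in pancreas and 6.59, 7.35 and 7.45 in spleen. The tissues overlapped in part, with pancreas array 1 the highest of all 6 and spleen array 1 the lowest. Zbp1, a sensor of Z-form nucleic acids linked to cell death, was at 9.48 ± 0.25 in pancreas and 9.41 ± 0.15 in spleen, a difference of 0.07 ± 0.18.

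The signalling and feedback members varied more between arrays of a tissue than between tissues. Stat2, the subunit particular to the type I response complex, read 9.24, 9.01 and 8.5 in pancreas and 8.61, 8.70 and 9.07 in spleen, a log2 difference of 0.12 ± 0.22. Usp18 removes ISG15 from proteins and blocks the type I receptor. It read 9.11, 8.73 and 7.87 in pancreas and 8.71, 8.92 and 9.52 in spleen. Its range within pancreas, 1.24, was wider than the tissue difference of -0.48 ± 0.31 (95% interval -1.16 to 0.21).

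Of the Ifit genes, whose products bind foreign RNA and block its translation, Ifit1 and Ifit2 had the largest differences of all members, both downward. Ifit1 read 8.71, 8.10 and 7.93 in pancreas and 8.73, 8.64 and 8.90 in spleen. Pancreas array 1 reached the spleen arrays while pancreas arrays 2 and 3 lay below them, and the difference was -0.51 ± 0.21, or 1.42-fold lower in pancreas (unadjusted p = 0.0379, adjusted p = 0.664 in limma). Ifit2 read 8.12, 7.82 and 7.15 in pancreas and 8.37, 8.20 and 8.19 in spleen. All pancreas arrays lay below all spleen arrays, and the difference was -0.56 ± 0.23, or 1.47-fold lower (unadjusted p = 0.0375, adjusted p = 0.663 in limma). Ifit3, a partner of Ifit1, read 8.17, 7.63 and 7.66 in pancreas and 7.58, 7.28 and 8.18 in spleen, with overlapping tissues and a difference of 0.14 ± 0.25. Ifit1 and Ifit3 lie on the same chromosome, and their promoters are shown because the genes share the ISRE motif while their differences between tissues had opposite signs. Neither difference passed the test, and that of Ifit3 changed sign with the array left out (-0.06 to 0.39). The stretches are the 250 bases before the start site in RefSeq (build GRCm38.p6), written 5′ to 3′ on the gene's strand, Ifit1 at chr19:34640639-34640888 (+) and Ifit3 at chr19:34583279-34583528 (+), with matches to the ISRE pattern in capitals:
Ifit1: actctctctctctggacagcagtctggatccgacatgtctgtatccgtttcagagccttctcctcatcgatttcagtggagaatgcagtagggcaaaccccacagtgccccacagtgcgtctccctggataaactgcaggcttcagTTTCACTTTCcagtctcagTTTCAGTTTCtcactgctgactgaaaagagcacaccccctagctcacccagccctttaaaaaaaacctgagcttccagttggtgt
Ifit3: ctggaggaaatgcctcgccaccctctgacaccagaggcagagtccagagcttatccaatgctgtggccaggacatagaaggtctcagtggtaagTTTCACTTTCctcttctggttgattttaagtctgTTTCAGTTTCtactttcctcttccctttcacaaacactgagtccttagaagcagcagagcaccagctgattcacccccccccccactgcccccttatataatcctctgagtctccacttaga
Each held 2 matches to GAAA-NN-GAAA (N being any base) or its reverse complement, starting 104 and 85 bases before the start for Ifit1 and 156 and 122 bases before it for Ifit3. Neither stretch held TTCNNNGAA, the GAS pattern.

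The oligoadenylate synthetase genes and their relatives, several of whose products trigger RNA decay on sensing double-stranded RNA, stayed close together. Oas1a, Oas2, Oas3, Oasl1 and Oasl2 had log2 differences of -0.17, 0.25, 0.08, 0.13 and -0.16, and their intervals together ran within -0.63 and 0.64. Oas2 read 7.47, 7.11 and 7.0 in pancreas and 7.06, 6.93 and 6.83 in spleen. Its pancreas arrays reached higher, but pancreas array 3 lay within the spleen range. The Mx genes encode antiviral GTPases. Mx1 read 6.68, 5.83 and 5.76 in pancreas and 5.67, 5.91 and 6.22 in spleen, so that 1 array of each tissue was above background. Mx2 read 6.08, 4.98 and 5.04 in pancreas and 5.17, 5.46 and 5.78 in spleen, with pancreas array 1 alone above background.

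The remaining type I members showed no common direction. Rsad2, the gene of the antiviral enzyme viperin, read 6.55, 6.13 and 5.92 in pancreas and 5.81, 5.96 and 5.87 in spleen. All spleen arrays were below background, so its pancreas mean was at least 1.15-fold higher (adjusted p = 0.979). Isg20, an exonuclease gene, read 9.51, 9.85 and 9.55 in pancreas and 8.95, 9.38 and 9.50 in spleen. The tissues did not overlap, with pancreas array 1 and spleen array 3 nearly meeting, and the difference was 0.36 ± 0.19 (adjusted p = 0.889). Xaf1, a pro-apoptotic gene, read 8.43, 7.98 and 7.99 in pancreas and 8.36, 8.56 and 8.56 in spleen, a difference of -0.36 ± 0.18 (adjusted p = 0.825) in which pancreas array 1 lay among the spleen arrays. Bst2, the gene of tetherin, which holds budding virus at the cell surface, was at 7.75 ± 0.08 and 7.83 ± 0.06, a difference of -0.08 ± 0.15. Rtp4, a chaperone gene with antiviral activity, had a difference of -0.22 ± 0.22.

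Among the gamma-biased members, the guanylate-binding proteins, GTPases that attack the vacuoles of intracellular microbes, were measured by 5 genes. Gbp3 read 9.66, 9.55 and 9.10 in pancreas and 8.96, 8.98 and 9.08 in spleen. All pancreas arrays lay above all spleen arrays, with pancreas array 3 just above spleen array 3. Its difference of 0.43 ± 0.18, or 1.35-fold, was the largest upward among the members (unadjusted p = 0.0389, adjusted p = 0.669 in limma). The other 4 overlapped between tissues. Gbp4, Gbp5 and Gbp7 had differences of -0.01, 0.10 and 0.12. Gbp9 read 9.61, 9.12 and 8.63 in pancreas and 9.50, 9.16 and 9.56 in spleen, a difference of -0.29 ± 0.24. These genes lie in clusters of similar copies, and probe sets of related copies may share signal.

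Gbp5 and Gbp7 are shown because, of the 7 measured gamma-biased members with a promoter in the RefSeq table, they were the 2 that held both motifs. The stretches are again the 250 bases before the start, Gbp5 at chr3:142496684-142496933 (+) and Gbp7 at chr3:142530086-142530335 (+), with matches to either motif in capitals:
Gbp5: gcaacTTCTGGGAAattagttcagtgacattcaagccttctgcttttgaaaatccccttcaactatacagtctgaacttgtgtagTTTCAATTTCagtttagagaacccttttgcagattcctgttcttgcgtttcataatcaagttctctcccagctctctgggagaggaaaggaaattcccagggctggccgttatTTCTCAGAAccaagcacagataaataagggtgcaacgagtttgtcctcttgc
Gbp7: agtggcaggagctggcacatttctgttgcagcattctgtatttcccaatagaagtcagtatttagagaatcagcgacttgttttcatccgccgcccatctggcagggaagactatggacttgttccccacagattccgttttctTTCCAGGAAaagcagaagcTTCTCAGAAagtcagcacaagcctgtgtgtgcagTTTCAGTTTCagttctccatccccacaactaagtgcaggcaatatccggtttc
Gbp5 held an ISRE match starting 165 bases before the start and GAS matches at 245 and 52 bases, and Gbp7 an ISRE match at 53 bases and GAS matches at 106 and 87 bases. Gbp5 read 9.33, 8.94 and 8.41 in pancreas and 8.88, 8.54 and 8.97 in spleen, and Gbp7 read 10.93, 10.90 and 10.41 in pancreas and 10.43, 10.63 and 10.82 in spleen. In both, pancreas arrays 1 and 2 were above pancreas array 3, and the tissues overlapped. A promoter was in the table for 26 of the 37 members, of which 15 held an ISRE match, 9 a GAS match and 6 both. Among all 32851 promoters of this length, 2.98% held the ISRE pattern, 7.02% the GAS pattern and 0.332% both. Both strands were searched and matches of the 2 motifs were allowed to overlap, and a member with several promoters was counted if any of them matched. A match describes the letters alone.

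The immunity-related GTPases, which act beside the guanylate-binding proteins, had differences near 0. Irgm1, a regulator of this family, read 9.48, 9.73 and 9.02 in pancreas and 8.96, 9.35 and 9.80 in spleen, so that the range within each tissue, 0.71 and 0.84, far exceeded the difference of 0.04 ± 0.25. Iigp1, an effector of the family, had a difference of -0.08 ± 0.21. The antigen-processing members followed the same course for 2 of 3. Tap1, a subunit of the peptide transporter, read 10.05, 10.07 and 9.55 in pancreas and 9.54, 9.83 and 10.19 in spleen, a difference of 0.04 ± 0.22 (95% interval -0.44 to 0.52). The immunoproteasome gene Psmb8 had a difference of -0.01 ± 0.17. Psmb9, a second immunoproteasome gene, read 8.66, 8.84 and 8.41 in pancreas and 8.02, 8.20 and 8.63 in spleen. Its difference of 0.35 ± 0.20 did not pass (adjusted p = 0.959), and spleen array 3 lay within the pancreas range.

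The wider of the ranges within a tissue exceeded the difference between tissues for 31 of 31 members, a share near the 94.2% of all genes and 92% of those above background. In pancreas, array 1 gave the highest value for 24 of 31 members and array 3 the lowest for 25, against 48.6% and 62.4% of the genes above background. In spleen, array 3 gave the highest for 22 and array 1 the lowest for 20, against 42.2% and 49.1%. Pancreas array 1 and spleen array 3 were the widest arrays, with interquartile ranges of 3.07 and 3.00, and pancreas array 3 and spleen array 1 the narrowest, at 2.23 and 2.49.

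When each array was centred on its median and scaled to one interquartile range, the classes differed within pancreas, as did other lists. The type I members stood above the mean of the other 2 pancreas arrays on pancreas array 1 by a median of 0.53 on the log2 scale in the deposited values and 0.38 after scaling, with 18 and 16 of 21 above it. The genes above background did so by 0.16 and -0.01. The gamma-biased members stood at 0.30 and -0.28, with 10 and 3 of 10 above it. After scaling, Mx2 (1.40), Mx1 (1.07), Rsad2 (0.71) and Ifih1 (0.62) were the type I members furthest above on pancreas array 1, and Isg20 was the furthest below (-0.73). These 5 were chosen after their values were seen, and Mx2, Mx1 and Rsad2 lie near background. On spleen array 3 the type I members stood above the other spleen arrays by a median of 0.23 in the deposited values and 0.11 after scaling.

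The other type I targets did not follow the type I members, while the other gamma targets went the same way as the gamma-biased members. After scaling, 15 of 21 type I members (71.4%) were highest in pancreas on array 1, but only 8 of 38 other type I targets (21.1%) were, against 35.1% of the genes above background, and 20 of those 38 were lowest there. Lowest on the same array were 7 of 10 gamma-biased members, 12 of 19 other gamma targets and 9 of 9 T cell and sorting genes. Of the genes above background, 38.3% were lowest there. The median scaled levels on that array were 7.78 for the type I members, 9.34 for the gamma-biased members, 8.82 for the other type I targets and 11.03 for the T cell and sorting genes, so that class and level cannot be told apart here. On pancreas arrays 1 to 3, the summed intensity was 938, 794 and 793 for CD8 T and NK markers, 1028, 986 and 1026 for plasmacytoid dendritic cell markers, and 1307, 1224 and 1319 for macrophage and dendritic cell markers. It was 1543, 927 and 1963 for B cell markers and 19044, 29958 and 14428 for acinar markers. Their part in the array pattern was not tested.

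**Figure D3:**
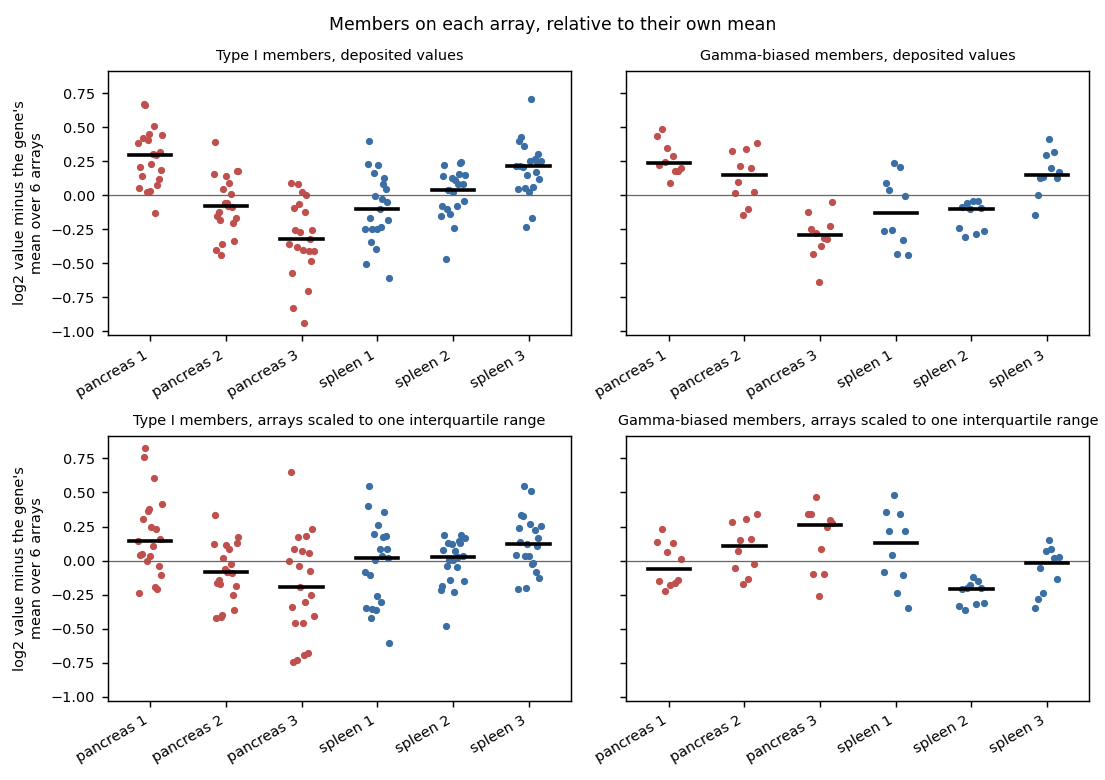
Log2 value of each member minus its own mean over the 6 arrays (y axis), by array, for type I (left) and gamma-biased members (right), in the deposited values (top) and with arrays scaled to one interquartile range (bottom); points are genes and black bars are medians. The type I members lie highest on pancreas array 1 among the pancreas arrays on both scales, whereas the gamma-biased members do so in the deposited values alone.

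The other genes of the interferon pathway were read from 7 lists, of which 97 of 118 genes were measured. Across them, 1 was higher and 1 lower past the test. At an unadjusted p under 0.05, 7 were higher and 6 lower, beside 3.2% and 3.64% of all genes. Both directions together made 13.4%, beside 6.84% of all genes and 10.1% of those above background. The gene that rose was Ifng, the interferon gamma ligand itself. It read 8.19, 7.92 and 7.95 in pancreas and 6.61, 6.98 and 6.54 in spleen, with all pancreas arrays above all spleen arrays, and was 2.47-fold higher (1.31 ± 0.18 SE, adjusted p = 0.00952). The gene that fell was Tlr7, an endosomal sensor of single-stranded RNA. It read 6.98, 6.86 and 6.49 in pancreas and 8.16, 8.16 and 8.10 in spleen, and was 2.57-fold lower in pancreas (adjusted p = 0.00693).

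The receptors gave opposite values for the chains of the interferon gamma receptor. Ifngr1, the ligand-binding chain, read 11.83, 11.75 and 11.51 in pancreas and 11.36, 11.32 and 11.19 in spleen, higher on every pancreas array, with a difference of 0.41 ± 0.16 (adjusted p = 0.614), but the tissues overlapped once arrays were scaled to one interquartile range. Ifngr2, the signalling chain, read 8.83, 8.78 and 8.21 in pancreas and 9.03, 9.25 and 9.65 in spleen, lower on every pancreas array, with a difference of -0.70 ± 0.22 (adjusted p = 0.348). The type I receptor chains Ifnar1 and Ifnar2 had differences of -0.27 ± 0.23 and -0.02 ± 0.18. In all, 0 of 6 receptor genes passed. At an unadjusted p under 0.05 there were 2 of 6 (33.3%), Ifngr1 and Ifngr2, beside 6.84% of all genes and 10.1% of those above background.

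Of 8 signalling genes, 0 passed the test in limma, and 0 had an unadjusted p under 0.05. Irf9, the DNA-binding subunit of the type I complex, differed by -0.25 ± 0.20 and Jak1, a kinase of both receptors, by -0.28 ± 0.17. Irf1, a factor induced by interferon gamma, was at 9.80 ± 0.39 in pancreas and 9.78 ± 0.31 in spleen. Irf7, which amplifies the type I response, read 8.92, 8.82 and 8.01 in pancreas and 7.74, 8.43 and 9.04 in spleen, so that its range within spleen was 1.31 beside a tissue difference of 0.18 ± 0.33. Irf3, which first induces type I interferon, differed by -0.17 ± 0.18.

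Of 6 feedback genes, 0 passed the test in limma, again with 0 at an unadjusted p under 0.05. Socs1, the main inhibitor of interferon gamma signalling, differed by -0.15 ± 0.27, Socs3 by 0.32 ± 0.28, the phosphatase gene Ptpn1 by 0.26 ± 0.19 and Pias1 by -0.31 ± 0.16. Among the sensing genes, Ikbke, a kinase that activates interferon regulatory factors, differed by -0.44 ± 0.28 and Trim25, which activates RIG-I, by -0.34 ± 0.21, neither past the test. Of the other 4 ligand genes with a mean above background, the type I ligands Ifna2 and Ifna5 differed by 0.10 ± 0.27 and -0.04 ± 0.27, Ifnl2 by -0.11 ± 0.19 and Ifnz by 0.63 ± 0.52. The value of Ifnz ran from 0.15 without pancreas array 3 to 1.27 without pancreas array 1.

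The wider target lists gave the same count as the members. Of 38 other type I targets, 0 passed the test in limma, with a median difference of -0.03. At an unadjusted p under 0.05, 2 were higher and 4 lower, or 15.8%. This stands beside 6.84% of all genes and 10.1% of those above background, where 36 of the 38 lay. Samd9l, an antiviral gene that restrains growth, read 9.53, 9.29 and 9.47 in pancreas and 10.31, 10.22 and 10.04 in spleen, a difference of -0.76 ± 0.16 (adjusted p = 0.0842). Slfn1, a schlafen gene linked to T cell quiescence, differed by -0.83 ± 0.21 (adjusted p = 0.144), and Ifitm3, a membrane protein gene that blocks virus entry, by 0.47 ± 0.16 (adjusted p = 0.388). These 3 genes were named for having the smallest p of the list. For each of them the arrays of the tissues did not overlap, although those of Samd9l did once arrays were scaled to one interquartile range. Over the list, 8 of 38 genes (21.1%) did not overlap, beside 10.4% of all genes and 14.2% of those above background.

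Of 19 other gamma targets, 0 passed the test in limma, with a median difference of 0.11. At an unadjusted p under 0.05, 3 were higher and 0 lower, or 15.8%, beside 6.84% of all genes and 10.1% of those above background. Those 3 were Cxcl9, Cxcl10 and Ciita. Cxcl9, a chemokine gene whose product binds Cxcr3, read 6.46, 6.72 and 7.29 in pancreas and 5.90, 5.78 and 5.84 in spleen. All 3 spleen arrays were below background. With spleen raised to background, the pancreas mean was 1.77-fold higher (adjusted p = 0.0871 in limma). Cxcl10, a second ligand of Cxcr3, read 8.45, 8.45 and 8.73 in pancreas and 7.32, 8.01 and 7.65 in spleen, with no overlap (0.89 ± 0.20, adjusted p = 0.105). Ciita, the regulator of MHC class II, which B cells and dendritic cells express, was at 6.49 ± 0.19 and 5.97 ± 0.17 (adjusted p = 0.402), beside the higher B cell markers given above. Macrophages and stromal cells can also make Cxcl9 and Cxcl10, and the part of such cells was not tested.

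**Figure D4:**
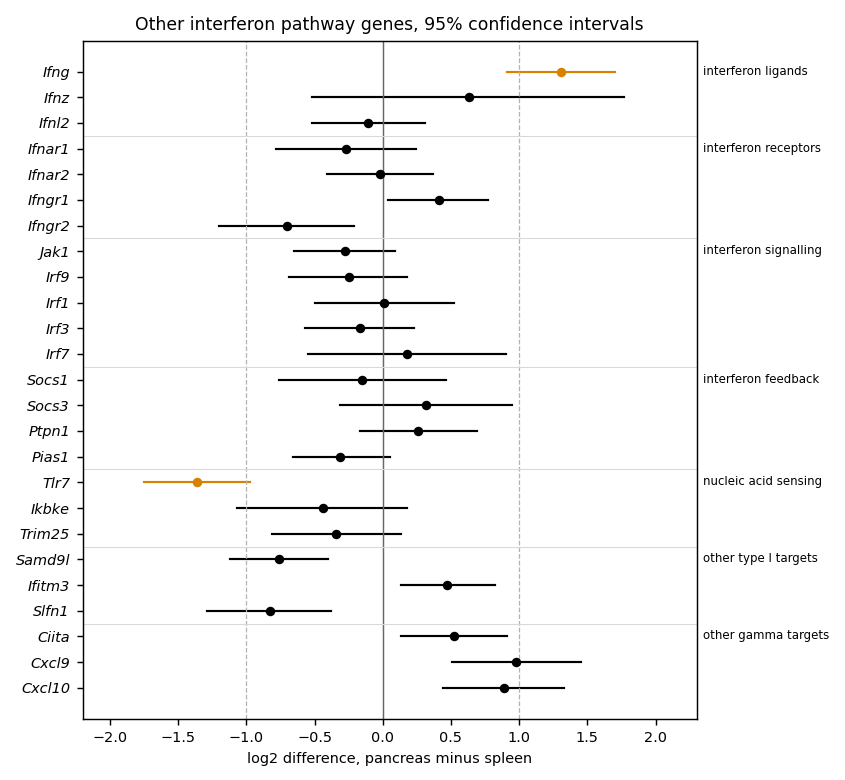
Log2 difference between tissues (x axis, pancreas minus spleen) with 95% confidence intervals from limma for the named pathway genes outside the member list, grouped by role, with dashed lines at a 2-fold difference. Orange marks the genes past the adjusted test, Ifng (1.31) and Tlr7 (-1.36).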

How the data were processed

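The authors deposited 1 linear intensity per probe set. The submitters' processing notes name RMA and Affymetrix Power Tools, without versions, and the sources used here name no genome build. The log2 of each value was used as it stood, without pseudocount or filter. RMA summarises probes into 1 value, and the columns did not share 1 distribution.

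Of 24922 probe sets, 21425 name exactly 1 gene in the platform annotation, 1399 several and 2098 none. Only the first were used. For genes with several probe sets, the one with the highest mean over the 6 arrays stood for the gene. Background was the 95th percentile of the mean level over 1194 olfactory and vomeronasal receptor genes. A tissue with every array under it was raised to it, and the fold is then a lower bound for the ratio of the means, not a confidence limit.

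Tissues were compared with limma (version 3.58.1, R 4.3.3), lmFit and eBayes, two-sided, with no covariates, Benjamini-Hochberg adjustment over 19752 genes and a threshold of 0.05. The script was tested on simulated data. Alternatives covered normalization, array width, dim genes, the variance model, array weights, several probe sets per gene, a block for the replicate number, and leaving out single arrays. Array weights used limma's gene-by-gene method, chosen after the default did not converge.

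The members, their classes, the other lists and the tests were chosen with earlier results of these data known. Named in full were, of each class and above background, the 4 members with the smallest p, the 3 with the highest mean and the 2 most extreme differences each way. Of each other pathway list, these were genes past the test, up to 3 above background with the smallest p, and a fixed few, namely Irf9, Irf7, Irf1, Ifng, Ifngr1, Ifnar1, Ifnar2 and Socs1 and 1 further gene that is not reported here. Ifna2 and Ifna5 were added after their values were seen. All 31 measured members are described. Markers of other cells were used for context. The CD8 T and NK, neutrophil, and endothelial and stromal lists gave 0 genes past the test of 8, 8 and 9 (2, 0 and 1 at an unadjusted p under 0.05). Promoters are RefSeq's, build GRCm38.p6. The arrays were not treated as pairs in the main fit, since the labels give only a replicate number.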

Additional observations from a re-analysis of the deposited data

How the results depend on the processing

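With 3 arrays a tissue, the number of arrays limits the precision, and Mx1, Mx2 and Rsad2 lie near background. The count of members past the test stayed at 0 under 7 of the 8 alternatives other than leaving out arrays and in all 6 fits with 1 array left out (smallest adjusted p = 0.101). With array weights, which put 3.15 on pancreas array 2 and 4.01 on spleen array 2 and under 1 on the others, it was 5, with Ifit1 (-0.55), Ddx58 (-0.41) and Xaf1 (-0.51) lower and Gbp3 (0.53) and Psmb9 (0.53) higher. In that fit 1684 genes passed over all, 16 other pathway genes and 23 markers of other cells. The count of other pathway genes, 2 in the main fit, was 3 when only genes with a mean above background were tested.

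Over all genes, the count of 134 became 38 with each array centred on its median, 212 with quantile normalization, 71 with arrays scaled to one interquartile range, and 64 to 262 with 1 array left out (pancreas array 2, 66; pancreas array 3, 262; spleen arrays 1 to 3, 64, 87 and 74). The count of markers of other cells, 14, became 6 with arrays centred and ran from 7 (without pancreas array 1) to 17 with 1 array left out. The medians of both member classes moved by less than the spread between arrays in every alternative run. The causes were not tested.

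Signs changed for differences near 0. These were Mx1 (-0.026), Oas3 (-0.095), Oasl2 (0.041), Iigp1 (0.060) and Socs1 (0.065) with array weights. Under quantile normalization, scaled arrays and array weights they were Gbp4 (0.064, 0.095 and 0.063), Psmb8 (0.046, 0.085 and 0.070) and Ifnar2 (0.040, 0.11 and 0.014). Irf1 changed sign with arrays centred (-0.0045) and with probe sets averaged (-0.081). With 1 array left out, these changed sign: Stat2 (-0.041 to 0.33), Ifit3 (-0.060 to 0.39), Mx1 (-0.14 to 0.32), Mx2 (-0.46 to 0.086), Oas3 (-0.12 to 0.24), Oasl2 (-0.32 to 0.0067), Zbp1 (-0.0035 to 0.22), Dhx58 (-0.13 to 0.38), Gbp4 (-0.12 to 0.11), Gbp5 (-0.12 to 0.34), Irgm1 (-0.17 to 0.25), Iigp1 (-0.25 to 0.050), Tap1 (-0.12 to 0.21), Psmb8 (-0.10 to 0.096), Ifnl2 (-0.25 to 0.020), Ifnar2 (-0.13 to 0.077), Irf1 (-0.15 to 0.23), Irf7 (-0.15 to 0.50) and Socs1 (-0.44 to 0.071).

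The arrays share only a replicate number. Same-numbered arrays deviated from their tissue means with correlations of -0.465, 0.115 and -0.677 for numbers 1 to 3. No pancreas array correlated best with the spleen array of its own number, and of the spleen arrays only array 2 did so with pancreas. The highest correlations joined the narrowest arrays (pancreas array 3 and spleen array 1, 0.647) and the widest (pancreas array 1 and spleen array 3, 0.508). The check therefore cannot show whether same-numbered samples belong together. With the replicate block, 132 genes passed over all and 0 members.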
